A study of Homo sapiens with 7 samples.

Results

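The library labelled G12 was compared with the control library of HUES66 cells, a human embryonic stem cell line, in full-length cDNA reads. G12 is named for RBFOX2 id 178135 and its genotype is given as a knockdown of an RBFOX2 isoform, while the control is given as WT. Both descriptions name piggyBac, a transposon used to insert transgenes, and both cultures had 1 µg/ml doxycycline and the time point of 24 h. The series title names Cas13d as the tool. The labels do not give the guide, the isoform behind the id, the promoter of the nuclease, whether the control carries the nuclease, or whether a line is 1 clone. There was 1 library per condition, so none of the differences could be set against replicates, and the intervals printed cover only the error of counting reads.

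After isoforms were summed by gene, 7878 of the 14294 genes in the table had a mean of at least 5 TPM over the 7 libraries and were compared. TPM is here the count scaled to the library total with no term for transcript length, so levels are compared between libraries and not between genes. G12 held 26678538 reads and the control 16801842. The other 5 libraries, G3, G5, G11, G13 and G14, carry other RBFOX2 ids with the same doxycycline dose and time. Their values stand beside those of G12 to show the range in the series, and they are replicates of neither condition. Every isoform in the table has at least 1 read in the control, so an isoform found in G12 alone could not be seen. Among stem cell markers, POU5F1 was at 916 TPM in the control and 547 TPM in G12, and LIN28A at 170 and 97.4 TPM. Of 12 compared pluripotency genes, 5 were above the control in G12 and 7 below it. None of 17 germ layer and trophoblast markers reached the mean of 5 TPM, and their summed level was 3.0 TPM in the control and 1.4 TPM in G12.

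RBFOX2 encodes an RNA-binding protein that recognises a short GCAUG-type element and raises or lowers the use of nearby exons, depending on which side of the exon it binds. Its own gene has several first exons and is alternatively spliced, so cells make a mixture of RBFOX2 proteins. Cas13d is a nuclease that cuts RNA matched by its guide, and an isoform can be targeted where its sequence differs from that of the others. An alternative acceptor gives such a difference, since a few bases at the start of an exon are kept or removed.

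The RNA sequence that separates the RBFOX2 forms compared here is 12 nt long. A coding exon of the gene, on the minus strand of chromosome 22, is read either as a long form (chr22:35759888-35760032 in GRCh38, GENCODE 29) or as a short form (chr22:35759888-35760020). The 12 nt come first in the long exon and are in capitals, since they are the bases that the short exon lacks.
long exon: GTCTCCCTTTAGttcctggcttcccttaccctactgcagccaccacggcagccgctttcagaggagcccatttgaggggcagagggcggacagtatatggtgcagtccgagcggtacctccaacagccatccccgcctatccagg
The exon upstream of it (chr22:35761202-35761294) joins either acceptor. The junctions are shown because they are where an RNA of one form differs from the other, with the last 20 bases of the upstream exon in lower case and the next 20 bases in capitals.
short junction: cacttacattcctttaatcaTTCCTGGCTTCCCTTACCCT
long junction: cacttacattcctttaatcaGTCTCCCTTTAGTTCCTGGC
The 12 extra bases are a multiple of 3, so the reading frame after them is the same in both forms.

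The RBFOX2 total was 107.3 TPM in the control (1802 reads) and 88.5 TPM in G12 (2360 reads), which is 82.5% of the control (95% exact interval 77.5 to 87.7). In bulk RNA, fewer cells of a type and less RNA per cell cannot be told apart. Within that total the short form was lower in G12 and the long form higher. Of the 106 RBFOX2 isoforms, 6 have exons in GENCODE 29, and the exon edges of another 50 were recovered from the hashes that serve as their IDs. Isoforms with known edges held 91.1% of the RBFOX2 reads in the control and 96.1% in G12.

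The short form, summed over 27 isoforms, was at 63.8 TPM in the control (1072 reads) and 32.8 TPM in G12 (876 reads), or 51.5% of the control (95% exact interval 47 to 56.3). Among the other libraries it was highest in G11 (75.2 TPM), followed by G14 (65.8 TPM), G5 (60.4 TPM), G13 (30.5 TPM) and G3 (20.5 TPM). G12 was thus low for the short form together with G3 and G13, the libraries with the lowest RBFOX2 totals.

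The long form, summed over 28 isoforms, was at 33.8 TPM in the control (568 reads) and 52.2 TPM in G12 (1393 reads), or 154% of the control (95% exact interval 140 to 171). Among the other libraries it was at 37.5 TPM in G14, 34.3 TPM in G5, 20.5 TPM in G13, 14.9 TPM in G3 and 3.22 TPM in G11. G12 was the highest of the 7 libraries for the long form. When the libraries were scaled by the median of ratios over genes, the short form was at 57.8% and the long form at 173% of the control, with both directions as before.

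**Figure D1:**
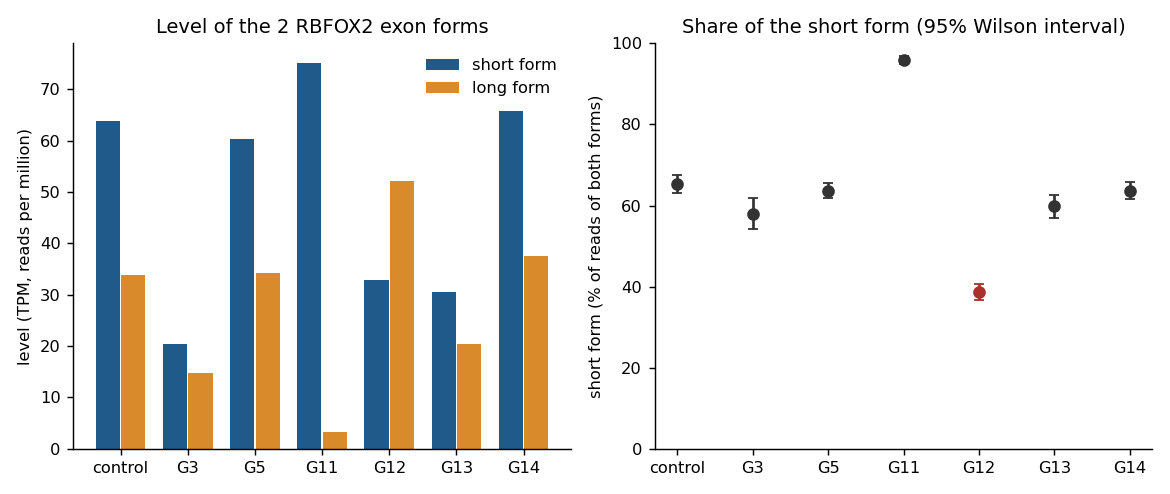
Left, level in TPM of the short form (blue) and the long form (orange) of RBFOX2, 1 bar per library and form. Right, share of the short form among reads of both forms in percent, with 95% Wilson intervals and G12 in red. G12 at 38.6% lies below the other 6 libraries, and G11 at 95.9% above them.

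In the 6 annotated isoforms, the short form made up 63.3% of reads in the control (508 of 803) and 36.1% in G12 (427 of 1183), a difference of -27.2 points (two-sided Fisher exact test, adjusted p = 3.32e-32 over 23 tests of RBFOX2 shares). The test compares the reads of these 2 libraries, not the conditions. With the isoforms recovered from hashes included, the share was 65.4% in the control (1072 of 1640, 95% Wilson interval 63 to 67.6) and 38.6% in G12 (876 of 2269, 36.6 to 40.6), a difference of -26.8 points (two-sided Fisher exact test, adjusted p = 1.52e-60). It was 95.9% in G11, 63.7% in both G5 and G14, 59.8% in G13 and 58% in G3. The control and these last 4 libraries lay between 58% and 65.4%, with G12 below that band and G11 above it. If every isoform of unknown edges had the short form, or none had it, the share would be 59.5% to 68.5% in the control and 37.1% to 41.0% in G12.

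The difference was seen in single isoforms as well as in the sum. Of the short form, 8 isoforms had at least 10 reads in the control, and 8 of them were below the control in G12, between 23.3% and 67.6% of it. Of the long form, 6 isoforms had that many reads and 5 were above the control, with a range of 65.8% to 192.1%. The exception was ENST00000414461.6, which lacks a 40-nt exon and had 22 reads in the control and 23 in G12. ENST00000695854.1, whose form is not known here, had 85 and 48 reads.

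The isoform with the most reads in the control was ENST00000416721.6, which has the short form and the first exon nearer to the gene's 3′ end, here called proximal. It was at 28.1 TPM in the control (472 reads) and 15.6 TPM in G12 (415 reads), 55.4% of the control (95% exact interval 48.4 to 63.3). The long-form isoform ENST00000449924.6, also proximal but with another annotated 3′ end, was at 14 TPM in the control (235 reads) and 24.9 TPM in G12 (664 reads), 178% of the control (153 to 207). Its reads in the other libraries numbered 517 in G14, 496 in G5, 77 in G13, 40 in G3 and 37 in G11. ENST00000416721.6 was thus above ENST00000449924.6 in the control and below it in G12.

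Isoforms from the distal first exon showed the same order of forms. The main distal isoform of the short form (hashed isoform 3, chr22:35743911-36028777) had 156 reads in the control and 75 in G12, 30.3% of the control level (95% exact interval 22.7 to 40.1). The main distal isoform of the long form (hashed isoform 4, chr22:35743599-36028799) had 85 and 165 reads, 122% of the control (93.5 to 161), an interval that includes the level of the control. For proximal isoforms with the longer exon of a 3-nt acceptor pair, described next, hashed isoform 1 of the short form had 260 and 279 reads (67.6%, 56.9 to 80.3) and hashed isoform 2 of the long form 120 and 366 (192%, 156 to 238).

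A long read links the 12-nt choice with the rest of the transcript, so the short form's share could be taken within each class of isoform. At the proximal first exon it was 66.8% in the control (838 of 1254 reads) and 40.8% in G12 (763 of 1870). At the distal first exon it was 56.8% (179 of 315) and 26.3% (89 of 339). Another exon (from chr22:35781600) has acceptors 3 nt apart. With its shorter form the share was 66.5% and 38.3%, and with its longer form 63% and 39.1%.

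In transcripts that skip the 40-nt exon (chr22:35756105-35756144), the short form's share was 67.9% in the control (95 of 140 reads) and 44.8% in G12 (43 of 96), a difference of -23.1 points (two-sided Fisher exact test, adjusted p = 6.12e-04). In transcripts from other first exons it was 77.5% of 71 reads and 40% of 60 reads, a difference of -37.5 points (two-sided Fisher exact test, adjusted p = 2.20e-05). These were the smallest and the largest differences among the classes plotted. Whether the size of the difference varied between classes was not tested.

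**Figure D2:**
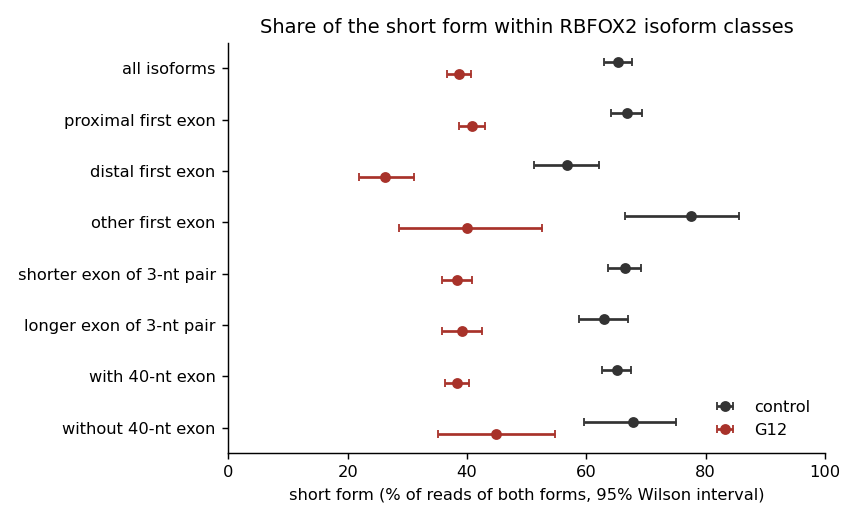
Share of the short form in percent of the reads of both forms (horizontal axis) within classes of RBFOX2 isoforms (vertical axis), control in black and G12 in red, with 95% Wilson intervals. G12 lies to the left of the control in all 8 classes. The gap is largest at other first exons (40% against 77.5%) and smallest without the 40-nt exon (44.8% against 67.9%).

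The levels of both forms within these classes show what the shares were made of. In proximal isoforms with the shorter exon of the 3-nt pair, the short form was at 54.1% of the control (95% exact interval 47.7 to 61.4) and the long form at 164% (143 to 189). In distal isoforms with that exon, the short form was at 32.4% (24.7 to 42.3) and the long form at 123% (94.9 to 159). The interval of the long form excluded the level of the control in the proximal class and included it in the distal class, and the difference between these classes was not tested.

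The other variable features of RBFOX2 differed by fewer points. The shorter exon of the 3-nt pair held 68.4% of reads in the control and 65.2% in G12 (two-sided Fisher exact test, adjusted p = 0.0412), against 22.1% in G13 and 94.8% in G14. The proximal first exon made up 79.9% of proximal and distal reads in the control and 84.7% in G12 (two-sided Fisher exact test, adjusted p = 2.35e-04), against 34.2% in G3 and 97.5% in G5. The 40-nt exon was included in 91.5% of reads in the control and 95.8% in G12 (two-sided Fisher exact test, adjusted p = 6.49e-08), and in 92.4% to 97.8% in the other 5 libraries. Transcripts without it were at 8.33 TPM in the control and 3.60 TPM in G12, and at 1.58 to 3.06 TPM in the other libraries, so that all 6 lay below the control.

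Splice sites of other genes were measured in the same way to place the RBFOX2 difference among them. For 2714 pairs of sites at most 60 nt apart, in 1947 genes with at least 100 informative reads in both libraries, the share of the site giving the shorter exon was taken. It was at least 10 points higher in G12 for 14 pairs (0.516%) and at least 10 points lower for 13 (0.479%), and the median absolute difference was 0.47 points. The 12-nt pair of RBFOX2 had the largest difference of the 2714, and also the largest from the median of the other 5 G libraries (-25.1 points). With RBFOX2 edges recovered only by the search used for other genes, which found 29 isoforms, the difference was -27.7 points and the rank the same. The 3-nt pair described above was number 310 by size. Another RBFOX2 pair 3 nt apart (chr22:35778075 and 35778078) was at 2.62% in the control and 2.6% in G12, number 2560.

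**Figure D3:**
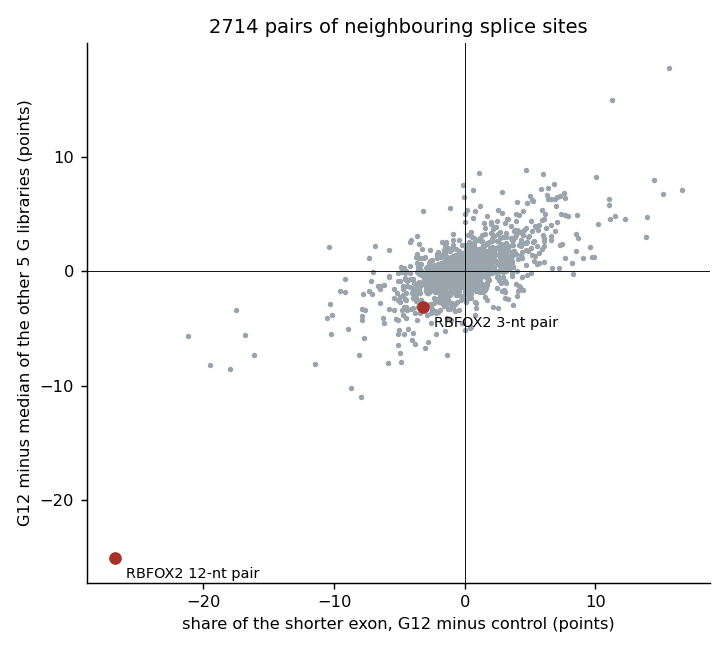
Each point is 1 of 2714 pairs of neighbouring splice sites. The horizontal axis is the share of the shorter exon in G12 minus that in the control, in percentage points. The vertical axis is G12 minus the median of the other 5 G libraries, in percentage points. Marked are the 12-nt pair of RBFOX2 and the 3-nt pair of its exon from chr22:35781600. The 12-nt pair lies at -26.8 and -25.1 points, apart from the other pairs, and the 3-nt pair lies near the centre.

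Of the other pairs with at least 200 informative reads in both libraries, TEAD2, a gene for a TEAD-family transcription factor, had the next largest fall. The shorter exon of its 40-nt pair made up 64% of reads in the control (525 of 820) and 42.9% in G12 (270 of 630). It was at 71.1% in G3, 56.7% in G5 and 48.5% in G11, and lower at 44.2% in G14 and 40.1% in G13, so G12 lay within the range of the others. MAP4K5, a kinase gene, was at 73.6% in the control and 55.7% in G12 for a 48-nt pair, and at 61.2% to 68% in the other 5. SART3, which takes part in the recycling of spliceosomal RNA, was at 53.2% and 35.6%, and RUSC1 at 48.6% and 31.8%. G12 was the lowest library for MAP4K5 and RUSC1, but RUSC1 was close to it in G13 (32.9%) and G14 (33.7%).

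Rises at paired sites with at least 200 informative reads in both libraries were smaller. Among pairs with fewer reads, ACBD4 rose by 16.7 points, ZSCAN5A by 15.6 and PTBP2 by 13.9. BANF1, which encodes a DNA-binding protein of the nuclear envelope, used the shorter exon of a 57-nt pair in 21.4% of reads in the control (963 of 4496) and 32.6% in G12 (1449 of 4451), and in 22.6% to 31.9% in the other libraries. FGFR1, a fibroblast growth factor receptor gene, used the shorter exon of a 6-nt pair in 61.1% and 71.1% of reads, and in 58.1% to 67.6% elsewhere. DYNC2LI1, a gene for a subunit of ciliary dynein, was at 57.5% and 68.6% for a 3-nt pair, and at 61.2% to 66.5% elsewhere. G12 was the highest library for BANF1, FGFR1 and DYNC2LI1. MASTL (54.1% and 63.9%) and ANAPC11 (43.9% and 53.4%), both genes of cell division, lay within the range of the others.

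Pairs with at least 200 informative reads in both libraries and 50 in each of the others were also ranked by distance from the other G libraries. The farthest included 3 that were higher in G12 than in each other library. BCL2L1, a regulator of apoptosis, used the shorter exon of an 18-nt pair in 77.7% of reads in the control and 78.8% in G12, and in 69.6% to 74.8% in the other 5. ARMCX3 (47.2% and 51.9%) and ZNF286A (36.8% and 42.9%) were above the range of the other libraries, 42.4% to 48.8% and 26.6% to 38.2%. Some pairs below these read minimums lay farther from the median of the other G libraries. ZSCAN5A (49.2% and 64.8%) was 17.8 points from it and LY6E (51.2% and 62.5%) 15.0 points, with G12 the highest library for both. TSFM was at -10.97 points and BCS1L at -10.15 points.

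Exons that are included whole or skipped were compared likewise. Among 12208 such exons in 4284 genes, 38 were included at least 10 points more in G12 (0.311%) and 32 at least 10 points less (0.262%), with a median absolute difference of 0.38 points. Differences of that size from the control numbered 61 in G3, 80 in G5, 82 in G11, 123 in G13 and 135 in G14, all against the same control library. The minimum of 100 informative reads held for the control and G12 alone, so counts in the other libraries can hold more counting error. In G12, 16 exons lay 10 points or more from the median of the other 5 G libraries.

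Exons named in this and the next paragraph had at least 200 informative reads in both libraries and 50 in each of the others. The exon with the largest fall among them was an 807-nt exon of SGO1 (chr3:20174249-20175055), which encodes shugoshin, a protector of centromeric cohesion. It was included in 46% of reads in the control (143 of 311) and 15.4% in G12 (88 of 573). G3 (68.9%) and G5 (45.2%) were high with the control, and G11 (18.9%), G14 (12.4%) and G13 (11.9%) were low with G12. SUN1, which encodes a protein linking the nucleus to the cytoskeleton, included a 99-nt exon (chr7:851384-851482) in 56.1% and 39.5% of reads, and in 23.6% to 51.9% elsewhere. HNRNPA1, an abundant splicing regulator, included a 156-nt exon (chr12:54283079-54283234) in 75.5% of reads in the control (6989 of 9257) and 61.5% in G12 (9441 of 15347), and in 59.7% to 77.4% elsewhere. ASCC1 (29.5% and 15.4%) and the translation initiation factor gene EIF4G1 (47.4% and 34.5%) were lower in G12 than in the other 6 libraries. Some of these were close to G12, with ASCC1 at 16.3% in G14 and 17.9% in G13. EIF4G1 was at 34.6% in G13, 35.3% in G14 and 37.1% in G11. Whether G12 differed from these libraries beyond counting error was not tested.

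Among exons included more often, RPUSD3, a gene of the pseudouridine synthase family, was at 34.3% and 51.3%, and TRAPPC3, a gene for a vesicle-tethering subunit, at 43.3% and 57.4%. PGAP2, which acts in the maturation of lipid-anchored proteins, was at 60.2% and 74%, ENDOV at 38.8% and 52.5%, and ATP5MK at 72.8% and 85.6%. G12 was the highest library for PGAP2 and ENDOV. The next highest was G14 for both, at 71% for PGAP2 and 50.5% for ENDOV. ENDOV was also at 50.4% in G13 and 49.7% in G3 and G5. Farthest from the other G libraries at the same read minimum was a 207-nt exon of the glucose transporter gene SLC2A8. It was included in 59.5% of reads in the control and 46.6% in G12 (270 of 580). G13 (48%) was close to G12, and the other 4 were at 56.7% to 65.6%. EIF3M, a translation initiation factor gene, was at 22.5% and 23.3% for a 211-nt exon and at 30% to 37.9% in the other 5 libraries, so G12 stood with the control. SIGIRR (78.7% and 77.3%) did likewise, with 82.2% to 90.1% elsewhere. For PTRH2 (15.8% and 23%) G12 was the nearest to the control. For TMEM241 (58.6% and 50.9%) G12 was the lowest library, with G11 next at 55.6%.

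Exons of genes studied as RBFOX targets came from a list written with results of these data known. The 93-nt exon of ECT2 (chr3:172755483-172755575), a gene for a cytokinesis regulator, was included in 87.5% of reads in the control (771 of 881) and 76.3% in G12 (1350 of 1769). It was at 83.1% in G3, 80.2% in G11, 77.7% in G14, 77.4% in G5 and 59.9% in G13, so all 6 G libraries lay below the control and G12 was not the lowest. PICALM, an endocytic adaptor gene, included a 24-nt exon in 77% of 287 reads in the control and 69% of 300 reads in G12, and in 64.7% to 75.9% elsewhere. Its 150-nt exon was at 27.1% and 19.8%, with 18.7% to 24.5% elsewhere. The 81-nt exon of the actin cross-linker ACTN1 was at 89.7% and 93.1%, and that of the kinase MAP3K7 at 10.1% and 12.5%. A 119-nt exon of CTNND1, a catenin gene, was at 41.1% and 39.9%, and exons of ACTN4 that share reads were at 48.5% and 46.5%.

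The whole isoform makeup of a gene was compared by a distance that sums the share of reads moved between isoforms, from 0 for equal makeup to 1 for no isoform in common. Over 6289 genes with at least 200 reads in both libraries, the median distance of G12 from the control was 0.0543. The other libraries lay between 0.0512 (G5) and 0.0642 (G14) from the control, and G12 and G11 lay 0.0365 from each other. Distances from the control and between G libraries are not alike, since every isoform listed has a read in the control. Of all 386982 isoforms, G12 had reads in 172832 and G11 in 170646. Isoforms seen in the control alone add to distances from it, and isoforms absent from the control cannot count. With isoforms of at least 1 TPM on average, these distances were 0.0193 from the control and 0.0163 between G12 and G11. RBFOX2 was at 0.302, above 98.7% of genes. In the other libraries its distance from the control ran from 0.286 (G5) to 0.477 (G13).

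Among the 8 genes with the largest distances, EPRS1 and FEZ2 had most of their reads in few isoforms. In EPRS1, a gene for an aminoacyl-tRNA synthetase, ENST00000366923.8 had 90 reads in the control (21.5% of the gene) and 641 in G12 (72.6%), and a shorter isoform (chr1:220022368-220046536) went from 62.5% to 22.5%. The share of ENST00000366923.8 was 46.7% in G3 and 76.4% to 88.2% in the other 4, above the control in all 6. FEZ2 showed a like pattern, ENST00000405912.8 being at 24.6% in the control, 55.5% in G12 and 57.3% to 66.9% elsewhere. In TRMT2B, LRCH3 and U2AF1L4, 87.4% to 90.2% of the control reads were in isoforms with fewer than 10 reads, so the distances of 0.6, 0.527 and 0.480 hold much counting error. SETD5, GNL3L and RALGPS1 had 60.5% to 70.5% of control reads in such isoforms, with distances of 0.442, 0.438 and 0.435.

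At the level of whole genes, 43 were at least 2-fold higher in G12 than in the control (0.546% of 7878) and 693 at least 2-fold lower (8.80%), on log2(TPM + 0.5), a scale that understates changes of low genes. Scaling by the median of ratios, a shift of 0.17 in log2 that the added 0.5 TPM makes smaller for low genes, gave 106 higher and 466 lower genes. The median log2 ratio was -0.16. The lower genes had a median transcript GC content of 59.8%, against 47.9% for all genes and 41.5% for the higher ones. Of the genes in the lowest of 5 bins of GC content 1.1% were lower, and of those in the highest bin 27.6%. With a smooth function of length and GC content subtracted, 119 genes were higher and 194 lower, of 7737 with a length and GC content.

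Against the median of the other 5 G libraries, 3 genes were at least 2-fold higher and 20 at least 2-fold lower. G12 was 2-fold or more above G11, the library with the highest share of the short form, in 2 genes and below it in 5. The standard deviation of log2 ratios was 0.31 between G12 and G11, 0.32 between G12 and G13, and 0.58 between G12 and the control. By 2-fold counts G13 was farther from G12 than G11 was, with G12 above G13 in 211 genes and below it in 1.

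**Figure D4:**
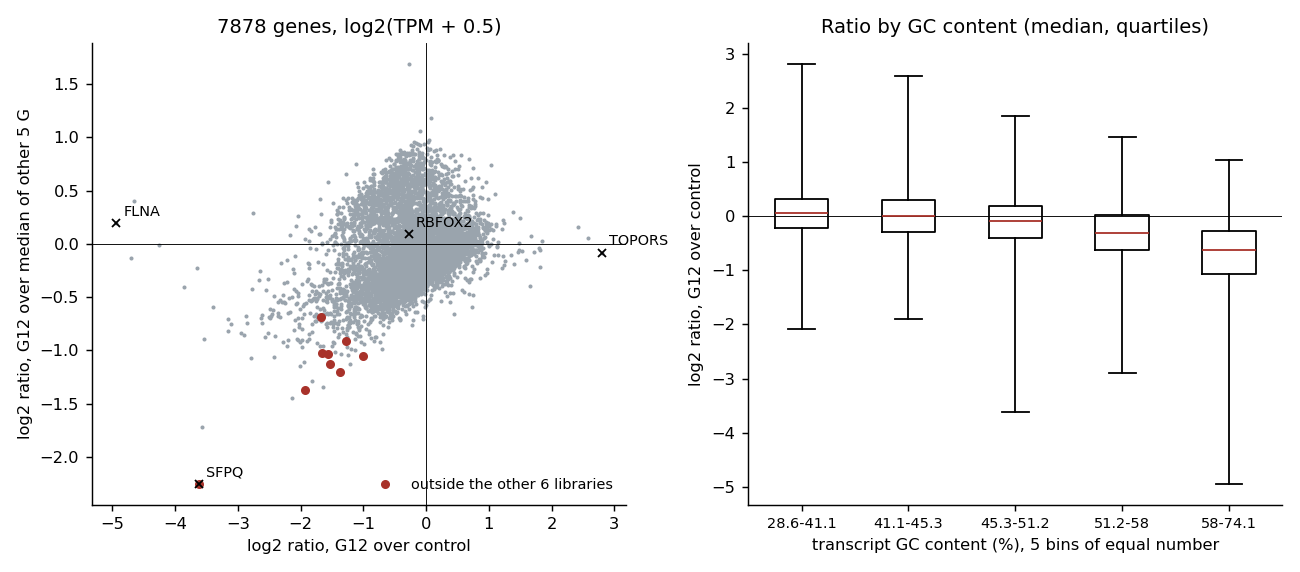
Left, log2 ratio of G12 over the control (horizontal) and over the median of the other 5 G libraries (vertical) for 7878 genes on log2(TPM + 0.5). RBFOX2, FLNA, TOPORS and SFPQ are labelled. Red points are the 9 genes outside the range of the other 6 libraries and at least 2-fold from their median. Right, log2 ratio of G12 over the control in 5 bins of transcript GC content, where boxes give the median and quartiles and whiskers the lowest and highest gene. The median goes from 0.07 in the bin of lowest GC content to -0.62 in the highest.

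The largest fall was that of FLNA, which encodes the actin cross-linker filamin A (chrX:154348524-154374638). It was at 24.0 TPM in the control (403 reads) and 0.30 TPM in G12 (8 reads), 1.25% of the control (95% exact interval 0.536 to 2.49). G3 (56.8 TPM) and G5 (17.2 TPM) were high, and G11 (0.20 TPM), G14 (0.05 TPM) and G13 (0.04 TPM) were lower than G12. PRRC2A was at 18.5 TPM in the control and 0.23 TPM in G12, and the collagen gene COL18A1 at 22.4 and 0.41 TPM. Both had at most 0.30 TPM in G11, G13 and G14 and more in G3 than in the control.

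AKT2, a kinase gene of the insulin pathway, was at 49.9 and 3.81 TPM, and RNF44, a gene for a RING-finger protein, at 36.6 and 3.79 TPM. COL26A1, RAVER1, NGFR and TLCD3B were at 10.6% to 14% of the control. NGFR, the low-affinity receptor of nerve growth factor, was at 85.2 TPM in the control and 12 TPM in G12. It was at 159 TPM in G3, 84.5 TPM in G5, 25.7 TPM in G11, 5.89 TPM in G14 and 4.84 TPM in G13. In these 6 genes G13 was lower than G12. FLNA, PRRC2A and these 6 genes had transcripts of 58.9% to 65.8% GC, and the part of GC content in their falls was not tested.

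The largest rise was that of TOPORS, a gene for a ubiquitin and SUMO ligase that binds topoisomerase. It was at 2.68 TPM in the control (45 reads) and 21.7 TPM in G12 (578 reads), 8.09 times the control (95% exact interval 5.97 to 11.2). The other libraries were at 36 TPM in G14, 28.1 TPM in G13, 23.0 TPM in G11, 20.4 TPM in G5 and 11.7 TPM in G3. CTR9, a gene for a subunit of the PAF1 elongation complex, was at 1.67 and 12.5 TPM, and TOP2A, the topoisomerase of dividing cells, at 4.36 and 25.4 TPM. SMC6 (3.16 and 12.4 TPM) and SMC3 (6.67 and 24.3 TPM) encode ring-forming chromosome proteins. KNOP1 was at 29.7 and 108.5 TPM, and CWC27, SEC63 and LSG1 also rose more than 2-fold. In these 9 genes all 6 G libraries were above the control.

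In 9 genes (0.114% of 7878) G12 lay outside the range of the other 6 libraries and at least 2-fold from their median, and it was the lowest library for each. Whether G12 differed from the next lowest library beyond counting error was not tested. SFPQ, which encodes a splicing factor of nuclear paraspeckles (chr1:35176378-35193148), was at 11.2 TPM in the control (187 reads) and 0.45 TPM in G12 (12 reads). It ranged from 79.9 TPM in G3 through 4.85 TPM in G5, 4.02 TPM in G14 and 1.16 TPM in G11 to 0.78 TPM in G13. KHDRBS1, which encodes the RNA-binding protein Sam68 (chr1:32013829-32060850), was at 45.4 TPM in the control and 11.6 TPM in G12, with 127.3 TPM in G3, 42.8 TPM in G14, 30.8 TPM in G5, 18.2 TPM in G11 and 12.9 TPM in G13. NXF1, the main export receptor of mRNA, was at 34.8 TPM in the control, 14.1 TPM in G12 and 14.5 TPM in G13. For these 3 genes G13 was the next lowest library.

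For ID2, an inhibitor of helix-loop-helix transcription factors, the next lowest library was G14. It was at 8.04 TPM in the control (135 reads) and 2.40 TPM in G12 (64 reads), and at 6.25 TPM in G5, 5.53 TPM in G13, 5.43 TPM in G3, 5.09 TPM in G11 and 4.30 TPM in G14. NOL9, which acts in ribosomal RNA processing, was at 12.5 TPM in the control, 3.56 TPM in G12 and 4.87 to 19 TPM in the others. The remaining genes were NFE2L3, a transcription factor gene (8.11 and 2.24 TPM), MAP2K4, a kinase gene of the stress pathways (9.70 and 3.44 TPM), FLVCR1, a membrane transporter gene (18.5 and 6.08 TPM), and PRKX, a kinase gene (22.6 and 10.9 TPM). In these 4 genes the next lowest library was G13. PRKX has a close copy in the genome, so its counts are uncertain where reads could be split.

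**Figure D5:**
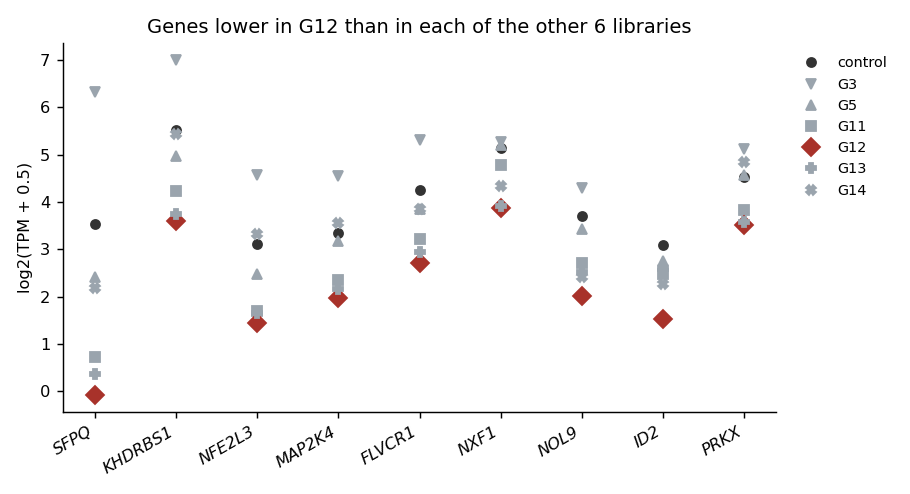
Level as log2(TPM + 0.5) (vertical axis) of the 9 genes that were lower in G12 than in each of the other 6 libraries, 1 point per library. The next library above G12 was at 4.30 against 2.40 TPM for ID2, 0.78 against 0.45 TPM for SFPQ and 12.9 against 11.6 TPM for KHDRBS1.

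AKAP17A and NFATC2IP were also far below the other G libraries as a whole, at 5.31 and 15.6 TPM in G12, but were lower still in G13 (4.29 and 13 TPM). Some genes were low in most G libraries and near the control in G12. PSMC3IP, which acts in meiotic recombination, was at 82.0 TPM in the control and 68.1 TPM in G12, with 95.5 TPM in G13, 45.2 TPM in G11, 20.8 TPM in G5, 14.3 TPM in G14 and 10.2 TPM in G3. UBB, a ubiquitin gene whose reads can resemble those of its relatives, was at 2570 TPM in the control, 2249 TPM in G12 and 2309 TPM in G13, and at 1052 to 1413 TPM in the other 4. ISCU (318.7 and 297.9 TPM) and DERL3 (24.3 and 25 TPM) fell into the same groups of libraries. DENR was at 16.0 and 16.9 TPM, with G11 nearer to the control than G13.

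Groups of genes were described by lists written with results known, beside a median log2 ratio of -0.16 and 8.80% lower genes over all genes. Of 12 compared pluripotency genes, 0 were 2-fold higher and 2 lower, NANOG (10.1 and 4.22 TPM) and the surface sialomucin gene PODXL (48.7 and 22.3 TPM), with a median of -0.51. The median was -0.02 over 11 genes when only isoforms with reference IDs were summed. NANOG, a core transcription factor of stem cells, was at 3.51 to 5.57 TPM in the other 5 G libraries, so G12 was within their range. DPPA4 (745 and 766 TPM) and SALL4 (61.7 and 73.8 TPM) were near or above the control. Of 8 fibroblast markers 2 were compared, COL1A1 (16.4 and 4.77 TPM) and COL1A2 (11.3 and 4.64 TPM), and both were lower. The summed level of that list was 31.2 TPM in the control and 9.8 TPM in G12, and its part in the results above was not tested.

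Among 11 compared genes of the RBFOX family and its studied targets, 1 was lower and the median was -0.20, which became 0.12 with length and GC content subtracted, 0.11 with reference IDs only (7 genes) and -0.03 under median-of-ratios scaling. It was CLSTN1, which encodes a membrane protein of vesicle transport, at 18.8 TPM in the control and 3.07 TPM in G12. The other libraries were at 41.0 TPM in G3, 17.3 TPM in G5, 4.99 TPM in G11, 3.68 TPM in G14 and 0.78 TPM in G13. Partners of RBFOX in the LASR splicing complex had 0 genes past 2-fold over 8 gene IDs and a median of -0.01, which turns positive under median-of-ratios scaling. The highest ratio was 0.83, for ILF2, a gene for a double-stranded RNA-binding complex subunit (2163 and 3842 TPM). Of 18 other splicing regulators 2 were lower, the epithelial regulator ESRP2 (15.7 and 6.72 TPM) and SRSF7 (1065 and 509 TPM), and the median was -0.25.

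Of 70 cytosolic ribosomal protein genes 27 were lower (38.6%) and 0 higher, with a median log2 ratio of -0.85. The count fell to 8 of 70 under median-of-ratios scaling and to 7 of 70 with length and GC content subtracted. Their transcripts had a median length of 979 nt, against 2604 nt for all genes, and the median was -0.47 with length and GC content subtracted. Against the other 5 G libraries the median was 0.20, the opposite sign. Reads of these genes can be shared with processed pseudogenes. Nuclear-encoded respiratory chain subunits had 12 of 67 lower (17.9%) with a median of -0.43, but 7 under median-of-ratios scaling (median -0.26) and 3 with length and GC content subtracted (median -0.17). Mitochondrial ribosomal protein genes had 4 of 74 lower (5.4%) with a median of -0.35, and 1 under either alternative. These medians were 0.32 and 0.39 against the other G libraries.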

How the data were processed

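Full-length reads had been counted per isoform in 7 MAS-Seq libraries, and the authors deposited 1 table with a count and a TPM value for each isoform and library, per the file headers. Reads were aligned with minimap2 2.17 to GRCh38 (hg38), per the submitters' processing notes. The isoform caller is not given in the sources used here. The deposited TPM equals the count divided by 1 constant per library (tolerance 0.01), which gives the library totals of 16801842 to 26678538 reads. A missing value counts as 0. Sums over the isoforms of a gene use the Ensembl stem of its ID, and symbols were found for 13873 of 14294 genes.

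Ratios were taken on log2(TPM + 0.5) for genes of 5 TPM or more on average, in Python 3.11.15 with scipy 1.17.1. With 1 library per condition no p-value was computed across genes. Intervals are 95%, exact (Clopper-Pearson) for ratios and Wilson for shares. Fisher exact tests were run on RBFOX2 reads alone and adjusted by the Benjamini-Hochberg method over 23 shares. The floor of 3 reads was 0.112 TPM in G12 and 0.179 TPM in the control.

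Isoform IDs that are a pair of hashes were decoded. The hashes equal those that older CPython gives to the tuples of exon starts and of exon ends, checked on GENCODE 29: of 344399 such isoforms with a gene ID, 45264 start hashes and 45545 end hashes equal that of an annotated transcript of the gene, and 0 do so after the edges are moved by 1 base. Decoding by paths through annotated junctions gave edges for 93.4% to 94.6% of the reads of the 6289 genes searched, and for 118 genes the search stopped at 20000 paths. For RBFOX2 every combination of annotated edges was tried. Exons of isoforms with an Ensembl ID were looked up without the version of the ID. Exon starts are printed counted from 1. RBFOX2 exon sequences come from the GENCODE 29 transcripts.

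Genes named are RBFOX2 and its main isoforms, the 10 largest rises and falls at a mean TPM of at least 10, the 5 highest and lowest against the other G libraries, all 9 outside the range of the other 6, the 8 largest usage distances, and list members, less 1 of the rises and 1 list member that are not reported here. Members and lists were chosen with earlier results of these data known. The decoding, the exon and splice site shares, their thresholds and the exons named (the 5 largest falls and rises and the 5 farthest from the other G libraries, with at least 200 informative reads in both libraries and 50 in each) were chosen after seeing the data. Scripts were tested on simulated data.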

Additional observations from a re-analysis of the deposited data

How the results depend on the processing

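No paired analysis was possible because every library is labelled as replicate 1 and each condition has 1 library. The difference in the share of the short form, -27.2 points in annotated isoforms, kept its direction under every alternative run, from -37.5 points (other first exons) to -17.7 points (distal first exon with the longer exon of the 3-nt pair, 55 and 72 reads). Counts of genes did not. At least 2-fold higher genes numbered 106 under median-of-ratios scaling and 3 against the other 5 G libraries, in place of 43, all of 7878. They numbered 84 of 7063 with reference IDs only and 119 of 7737 with length and GC content subtracted. Lower genes numbered 20 of 7878 against the other G libraries and 194 of 7737 with length and GC content subtracted. There were 1225 of 10287 at a mean TPM of at least 1 and 248 of 5220 at 20, in place of 693 of 7878. Genes outside the other 6 libraries numbered 114 of 7878 at 1.5-fold and 3 of 5220 at a mean TPM of at least 20. The RBFOX2 total, -0.28 as a log2 ratio, was -0.11 under median-of-ratios scaling and 0.09 against the other G libraries. The median usage distance was 0.0193 with isoforms of at least 1 TPM on average, and G12 to G11 was then 0.0163.

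With at least 200 informative reads, 20 whole exons were higher and 17 lower, in place of 38 and 32. Only 3 pairs of sites were higher, in place of 14. The lower pairs at that minimum included those of RBFOX2, TEAD2, MAP4K5, SART3 and RUSC1. Fewer exons and pairs were compared there than at 100 reads, so these counts are not shares. Against the other G libraries, 1 exon was higher and 15 were lower of 12208, and 2 pairs were higher and 3 lower of 2714. These exon alternatives, and the classes of RBFOX2 isoforms, were chosen after seeing the data. Taken against the other G libraries, the log2 ratio of genes past 2-fold changed sign for FLNA (0.19), COL18A1 (0.40), TOPORS (-0.08), SMC6 (-0.06), SMC3 (-0.04), CWC27 (-0.08), LSG1 (-0.40), SRSF7 (0.10), HSP90AA1 (0.02), RPLP0 (0.17) and RPS6 (0.35). With length and GC content subtracted it did so for POLD1 (0.01). Of the named genes under 2-fold, PSMC3IP (-0.27 against the control), ISCU (-0.10) and UBB (-0.19) were at 1.69, 1.06 and 0.96 against the other G libraries. ISCU was also at 0.07 under median-of-ratios scaling and, with length and GC content subtracted, at 0.14, where DENR went from 0.08 to -0.03. Of all 69 list genes past 2-fold, 34 changed sign against the other G libraries and the other 35 were under 2-fold, with length and GC content subtracted 1 changed sign and 46 were under 2-fold, and under median-of-ratios scaling 32 were under 2-fold. The cause was not tested. Depth limits low genes most, since 3 reads are 0.112 TPM in G12, and isoforms without a read in the control are not in the table.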

Other observations

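Further lists, written with results known, are given beside 0.546% higher and 8.80% lower genes over all genes. Of 20 compared DNA replication genes 1 was lower, POLD1, the catalytic subunit of a replicative polymerase (90.9 TPM in the control and 41.7 in G12), and the median log2 ratio was 0.10. Of 19 mitosis genes TOP2A was higher and 0 lower, with a median of 0.36. Heat shock genes had a median of -0.20 with HSP90AA1, a cytosolic chaperone, lower (67.1 to 28.4 TPM), and nonsense-mediated decay factors a median of -0.40 with UPF3B (5.78 to 1.60 TPM) and SMG5 (48.3 to 15.0 TPM) lower, 2 of 10. Of 10 compared p53 targets 1 was lower, PHLDA3, an inhibitor of AKT signalling (30.7 to 8.91 TPM), and the median was -0.62, but -0.07 with length and GC content subtracted and 0.01 against the other 5 G libraries. Both compared collagen genes, POLD1, SMG5 and PHLDA3 have transcripts for which the ratio was nearer 0 with length and GC content subtracted.

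No member was past 2-fold among 18 glycolysis genes (median -0.01), 17 cholesterol synthesis genes (-0.15), 10 genes of the endoplasmic reticulum and ATF4 response (0.03), 34 proteasome subunits (-0.09), 4 immediate early genes (-0.05) and 4 interferon response genes (0.32). In the last list IFIT1, an antiviral sensor of RNA, was at 17.4 TPM in the control and 33.4 in G12, with 17.7 to 43.1 in the other libraries. Of 230 zinc finger genes 11 were lower and 0 higher, with a median of -0.07. Of 4 host genes of small nucleolar RNAs, SNHG7 (17.1 to 4.12 TPM) and SNHG4 (9.02 to 3.54 TPM) were lower, with a median of -1.02. Under median-of-ratios scaling the medians of glycolysis (0.15), cholesterol synthesis (0.02), proteasome (0.07), immediate early (0.11) and zinc finger genes (0.09) were positive. Against the other 5 G libraries the median was -0.04 for mitosis, -0.22 for DNA replication, -0.09 for the endoplasmic reticulum list, 0.36 for proteasome subunits and 0.16 for host genes of small nucleolar RNAs, each of the opposite sign.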
